A study of Mus musculus with 6 samples.

Results

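This account covers 9 genes of the cardiac potassium current in the ventricles of dystrophic mice: the pore subunits Kcnj11 and Kcnj8 and the sulfonylurea receptors Abcc8 and Abcc9 of the ATP-sensitive (KATP) channel, the strong inward rectifiers Kcnj2 and Kcnj12, the G protein-gated rectifiers Kcnj3 and Kcnj5, and the tandem-pore channel Kcnk3. They are 9 of 30142 named genes on the arrays. The genes were listed by family, with earlier results of these data known, and each gene's transcript cluster was chosen by its mean over the 6 arrays, so their group differences are given as a description. Each of the 9 symbols had 1 transcript cluster.

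Hearts came from 6 male mice, 1 array each. All 6 carried the mdx mutation, lacked dystrophin and had a single functional utrophin allele (utrn+/-; mdx, "Het", on C57BL/10), so both groups share the disease genotype and there is no healthy heart in the series. In the finerenone group 3 mice ate chow containing the drug at 100 ppm from 4 weeks of age, while 3 untreated mice ate chow without it, and every heart was taken at 20 weeks. Finerenone is a non-steroidal blocker of the mineralocorticoid receptor. Values are log2 signals made by the authors with RMA, a unit in which a difference of 1 is a doubling.

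Inward rectifiers pass potassium more easily into the cell than out and hold the resting potential of heart muscle. KATP channels are built from Kir6 pores and sulfonylurea receptors. ATP closes them, so they couple the membrane potential to the energy state of the cell. In mouse ventricle the sarcolemmal channel is mainly Kcnj11 with Abcc9, in vascular smooth muscle and pericytes it is Kcnj8 with Abcc9, and in mouse atria Abcc8 takes part. Kcnj2 and Kcnj12 carry the classical background rectifier current. Kcnj3 and Kcnj5 together form the channel that acetylcholine opens through G protein beta-gamma subunits, which is best known from atria and the sinus node. Kcnk3 (TASK-1) is an acid-sensitive leak channel.

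The table of upstream sequences from RefSeq (mouse GRCm38.p6) held 6 of the 9 genes. The 110 bases just before the annotated start are shown for 3 of them: Kcnj2, the only one of the 6 with the E-box letters CACGTG that clock proteins can bind, and Kcnj3 and Kcnj5, whose products join in 1 channel. Capitals mark the E-box and the GC box GGGCGG (or its reverse complement CCGCCC).
Kcnj2, chr11:111066054-111066163, + strand: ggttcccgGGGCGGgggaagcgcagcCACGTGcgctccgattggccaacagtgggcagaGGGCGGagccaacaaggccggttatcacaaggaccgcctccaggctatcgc
Kcnj3, chr2:55435860-55435969, + strand: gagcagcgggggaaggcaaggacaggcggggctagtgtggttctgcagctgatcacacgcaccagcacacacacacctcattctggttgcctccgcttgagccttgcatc
Kcnj5, chr9:32344345-32344454, - strand: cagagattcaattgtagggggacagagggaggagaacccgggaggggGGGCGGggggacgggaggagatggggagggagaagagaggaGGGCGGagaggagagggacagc
Over the 250 bases before the start, on both strands, the E-box stood in 6.02% of all 32851 windows and in 1 of the 6 windows of these channel genes. The GC box stood in 32.7% of all windows and in 3 of the 6 (Abcc9, Kcnj2 and Kcnj5). The letters AGAACA (reverse complement TGTTCT), a 6-base element of the sites that corticosteroid receptors bind, stood in 16.1% of all windows and in 0 of the 6, and those of a TATA box, TATAAA with its reverse complement TTTATA, in 12.4% and 0 of the 6. These are matches of letters only, and the arrays do not report on binding.

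Across the 9 genes signal was lower in finerenone hearts for 8 and higher for 1, with a median log2 difference of -0.26 (finerenone minus untreated throughout), where all 30142 genes had a median of 0.03 and 41.8% were lower. The widest differences were those of Kcnk3 (-0.53), Kcnj11 (-0.40) and Kcnj5 (-0.37), and the exception was Kcnj2 (0.24). None of the 9 passed in limma after Benjamini-Hochberg adjustment over all genes, where the smallest adjusted p was 0.597 and 0 of 30142 genes passed (0%). At an unadjusted p below 0.05, 4 of the 9 were lower (Kcnj11, Kcnj12, Kcnj5 and Kcnk3) against 2.12% of all genes, and 0 of the 9 were higher against 5.69%. The lower count depended on single arrays. It was 1 without finerenone replicate 2 (Kcnj11, against 1.67% of all genes) and 4 without finerenone replicate 3 (against 1.8%), the extremes with 1 array left out. For 3 of the 9 (Kcnj11, Kcnj12 and Kcnk3) every finerenone array lay below every untreated one, as it did for 4.18% of all genes. Because the list was drawn up with such results in view, nothing is read from these shares.

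**Figure D1:**
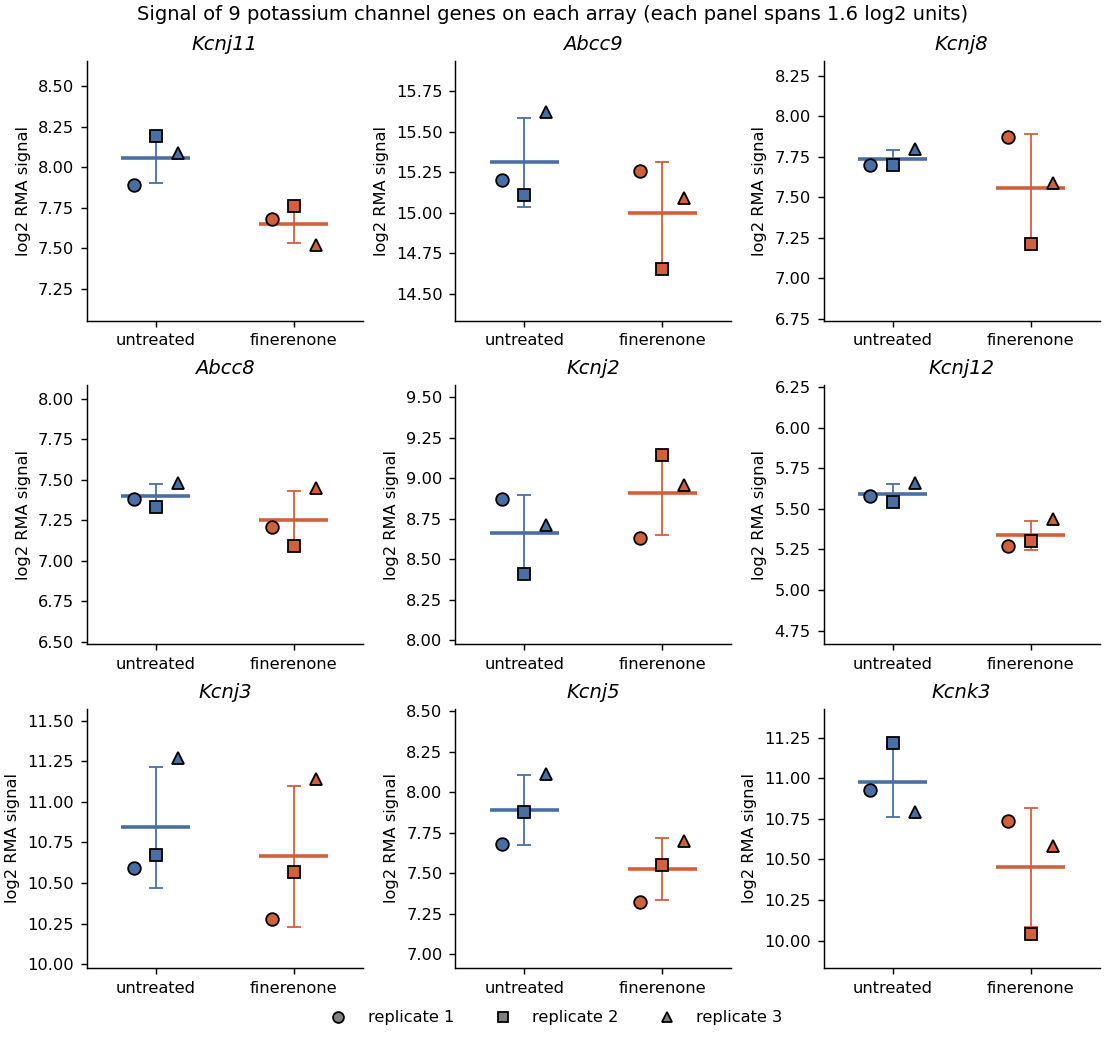
Log2 RMA signal (y axis) of the 9 channel genes in 3 untreated (blue) and 3 finerenone (orange) hearts, 1 point per array; horizontal lines are group means, bars are SD, and each panel spans 1.6 log2 units. Groups are separate for Kcnj11, Kcnj12 and Kcnk3 and overlap for the other 6 genes.

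The pore of the ventricular KATP channel, Kcnj11 (Kir6.2), measured 7.68, 7.76 and 7.52 in the finerenone hearts and 7.89, 8.19 and 8.09 in the untreated hearts. All treated values were below all untreated ones, by a gap of 0.13 between the nearest arrays. The means were 7.65 ± 0.12 and 8.05 ± 0.15 (SD, n = 3 each), a log2 difference of -0.40 ± 0.11 (SE; unadjusted 95% interval -0.67 to -0.13), which is a ratio of 0.758. The limma adjusted p over all genes was 0.597. With any single array left out the difference stayed between -0.48 and -0.33.

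Abcc9 (SUR2), the receptor subunit that Kcnj11 and Kcnj8 share, read 15.26, 14.65 and 15.09 in treated and 15.20, 15.11 and 15.62 in untreated hearts. The groups overlapped, with finerenone replicate 2 lowest and untreated replicate 3 highest. The difference was -0.31 ± 0.20 (SE; 95% interval -0.79 to 0.17; adjusted p = 0.760 in limma). Leaving out finerenone replicate 2 gave -0.13 and leaving out untreated replicate 3 gave -0.15, so those arrays carried more of it than the others. Under quantile normalization the difference was -0.45, under cyclic loess -0.38 and under median centring -0.32.

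Kcnj8 (Kir6.1), the pore of the vascular KATP channel, read 7.87, 7.21 and 7.59 in treated and 7.70, 7.70 and 7.80 in untreated hearts. The untreated values sat close together inside the treated range, which ran from the highest to the lowest of the 6 arrays. The difference was -0.18 ± 0.17 (SE; 95% interval -0.58 to 0.23; adjusted p = 0.843 in limma), and it was 0.00 to 2 decimals without finerenone replicate 2 and -0.33 without finerenone replicate 1.

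Abcc8 (SUR1), best known from pancreatic beta cells and neurons, read 7.21, 7.09 and 7.45 in treated and 7.38, 7.33 and 7.48 in untreated hearts. Finerenone replicate 3 lay within the untreated range. The difference was -0.15 ± 0.11 (SE; 95% interval -0.42 to 0.12; adjusted p = 0.796 in limma), with -0.07 when finerenone replicate 2 was left out and -0.25 when finerenone replicate 3 was. Among the negative control probe sets on the array, 10.7% had a mean at or above that of Abcc8.

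The KATP genes lie as neighbours in the RefSeq annotation, Kcnj11 beside Abcc8 on chromosome 7 and Kcnj8 beside Abcc9 on chromosome 6, with 0 protein-coding genes between the partners. The neighbours did not share an order of the arrays on chromosome 7: Kcnj11 was lowest in finerenone replicate 3, the treated array in which Abcc8 was highest. On chromosome 6 both genes were lowest in finerenone replicate 2, with deviations from the gene's own mean over 6 arrays of -0.44 for Kcnj8 and -0.50 for Abcc9.

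Kcnj8 and Abcc9 are themselves used as pericyte markers, so the levels of other mural genes are given beside them. Of 12 markers of pericytes and smooth muscle, 9 had lower signal under finerenone (median -0.12), none past the adjusted threshold. Their mean level per array ran from 9.01 to 9.11 in treated and from 9.02 to 9.37 in untreated hearts, and 11 of the 12 were at or above the median of the negative controls (5.15). The receptor Pdgfrb, a defining mural gene, read 9.53, 9.04 and 9.02 in treated and 9.71, 9.68 and 9.87 in untreated hearts, separate groups with a difference of -0.55 ± 0.16 (SE; adjusted p = 0.597 in limma). The smooth muscle genes Myh11 and Tagln differed by -0.49 and -0.43, Vtn by -0.33 and Mcam by -0.32. Rgs5, another pericyte gene, differed by -0.05, Des (desmin), which cardiomyocytes express as well, by 0.35, and the smooth muscle actin Acta2 by 0.02. Higd1b, also a pericyte gene, went the other way from Pdgfrb with separate groups. It read 6.75, 6.98 and 6.67 in treated and 6.36, 6.55 and 6.55 in untreated hearts, a difference of 0.31. At an unadjusted p below 0.05 in limma, 1 of the 12 was lower and 2 were higher, beside 2.12% and 5.69% of all genes. All 10 measured endothelial markers were lower (median -0.39; mean level 11.16 to 11.45 against 11.39 to 12.07), without any adjusted call. Before rounding, all 8 macrophage markers were higher (median 0.28, mean level 8.77 to 9.25 against 8.55 to 8.95), also without an adjusted call. The lysozyme gene Lyz2 was at 0.75 and the Fc receptor Fcgr1 at 0.60, whereas Csf1r was at 0.00, with a mean of 9.07 in both groups. Of all 30142 genes 17543 were higher and 12599 lower. In a homogenised ventricle fewer cells of a type and less RNA per cell cannot be told apart, and the part of vascular or immune cell content in these differences was not tested.

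Of the strong inward rectifiers, Kcnj2 (Kir2.1) was the single gene of the 9 with a higher mean in treated hearts. It read 8.63, 9.14 and 8.96 against 8.87, 8.41 and 8.71 in untreated hearts. The groups overlapped: finerenone replicate 1 was second lowest of the 6 arrays, while finerenone replicates 2 and 3 were the highest. The difference was 0.24 ± 0.17 (SE; 95% interval -0.17 to 0.66; adjusted p = 0.780 in limma), 0.38 without finerenone replicate 1, 0.12 without untreated replicate 2 and 0.13 without finerenone replicate 2.

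Kcnj12 (Kir2.2) was dim. It read 5.27, 5.30 and 5.44 in treated and 5.58, 5.54 and 5.66 in untreated hearts, and 42.3% of negative control probe sets had a mean at or above its own. The groups were separate by 0.10, and the difference was -0.26 ± 0.08 (SE; 95% interval -0.46 to -0.05; adjusted p = 0.597 in limma). Kcnj12 lay below the brightest of 23 background probe sets graded by GC content (means of 2.37 to 5.60), whereas the other 8 genes lay above it. By the stricter line of the 95th percentile of the negative controls (8.28), 4 of the 9 lay above (Abcc9, Kcnj2, Kcnj3 and Kcnk3). Kcnj11, Kcnj5 and Kcnj8 lay below it like Abcc8 and Kcnj12, with 6.89%, 7.93% and 8.27% of negative controls at or above them. With 1 array left out the difference of Kcnj12 was between -0.31 and -0.22.

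The G protein-gated genes Kcnj3 (GIRK1) and Kcnj5 (GIRK4) differed in how far the groups stood apart. Kcnj3 read 10.28, 10.57 and 11.14 in treated and 10.59, 10.67 and 11.27 in untreated hearts, with broad overlap and a difference of -0.18 ± 0.27 (SE; 95% interval -0.84 to 0.47; adjusted p = 0.904 in limma). Its sign turned to 0.01 without finerenone replicate 1 and to 0.03 without untreated replicate 3. Kcnj5 read 7.32, 7.55 and 7.70 against 7.68, 7.88 and 8.11, an overlap of 0.02 between the nearest arrays. Its difference was -0.37 ± 0.15 (SE; 95% interval -0.72 to -0.01; adjusted p = 0.625 in limma) and stayed between -0.47 and -0.26 whichever array was removed. Both genes were lowest in finerenone replicate 1 and highest in untreated replicate 3.

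Since this channel and Kcnk3 are strong in atria, the levels of atrial markers are given beside them; their part in the differences was not tested. The brightest gene of the atrial list, Nppa, read 18.70 to 19.59 in treated and 17.85 to 19.22 in untreated hearts, a difference of 0.45 with overlapping groups. Nppa was highest in finerenone replicate 2 (19.59) and lowest in untreated replicate 1 (17.85). So was skeletal actin Acta1, a gene of the stressed heart (16.04 and 12.26), and Nppa is therefore not read as a measure of atrial tissue. Next in brightness on the atrial list came Stard10, at 9.06 to 9.33 and 8.52 to 9.08, a difference of 0.33, also with overlap. The light chain Myl7 measured 4.72 to 5.93 in treated and 5.16 to 5.20 in untreated hearts, and sarcolipin (Sln) 4.74 to 5.19 and 4.49 to 4.88. Both lay near the negative control median of 5.15. The ventricular light chain Myl2 was bright, at 12.41 to 12.62 and 11.94 to 12.66. Of 9 atrial markers 7 were higher in treated hearts, with a median of 0.17, and 3 of the 9 lay below the negative control median. Their mean level was 7.01 to 7.45 against 7.06 to 7.10, so the groups overlapped. That mean includes Nppa, which spanned 1.75 across all arrays. Of 9 measured genes listed for ventricular cardiomyocytes 6 were higher, with a median of 0.00. That list holds genes of cardiomyocytes in general, such as Tnnt2, so it gives no contrast of ventricle with atria. Tnnt2 (19.92 to 19.93 on all arrays) sat at the top of the scale and had little room to rise. Of 7 measured conduction-system markers 4 were higher (median 0.01), and Hcn4, the pacemaker channel, read 5.02 to 5.47, near background.

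Kcnk3 (TASK-1) had the widest difference of the 9. It read 10.74, 10.04 and 10.58 in treated and 10.93, 11.22 and 10.79 in untreated hearts. The groups were separate, though only by 0.05, and finerenone replicate 2 stood lowest. The means were 10.45 ± 0.37 and 10.98 ± 0.22 (SD, n = 3 each), a difference of -0.53 ± 0.21 (SE; 95% interval -1.02 to -0.03; ratio 0.694; adjusted p = 0.620 in limma). Without finerenone replicate 2 it was -0.32, and without finerenone replicate 1 it was -0.67.

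**Figure D2:**
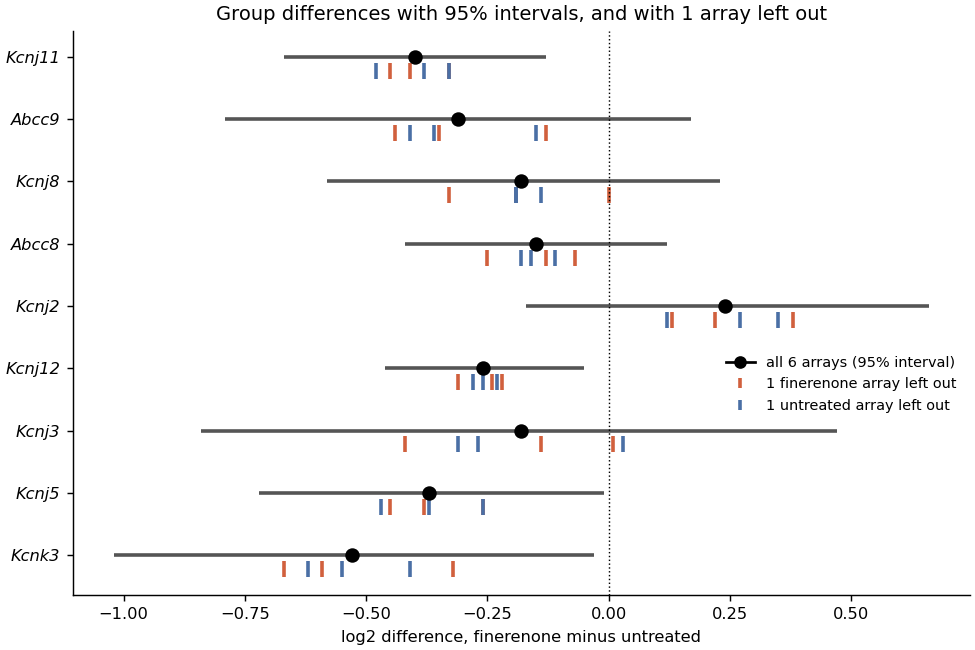
Log2 difference (x axis, finerenone minus untreated) of each channel gene over 6 arrays with its unadjusted 95% interval (black), and the 6 values with 1 array left out (ticks; orange for a finerenone array, blue for an untreated one). The ticks of Kcnj11 span -0.48 to -0.33, whereas those of Kcnj3 reach 0.03 and those of Kcnj8 reach 0.

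The 9 genes did not vary as a block. Finerenone replicate 2 had the lowest reading for 4 of them (Kcnj8, Abcc8, Abcc9 and Kcnk3) and the highest for Kcnj2. Finerenone replicate 1 was lowest for 3 (Kcnj12, Kcnj3 and Kcnj5), and untreated replicate 3 was highest for 5 (Abcc8, Abcc9, Kcnj12, Kcnj3 and Kcnj5). The median of the 9 differences moved to -0.14 when finerenone replicate 2 was removed and to -0.15 when untreated replicate 3 was. Finerenone replicate 2 also had the highest signal of skeletal actin Acta1, a gene of the stressed heart, at 16.04 against 12.26 to 14.28 in the other 5 arrays.

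Several core clock transcripts divided the arrays in a way that cut across the treated group. Arntl (Bmal1), the activator, read 8.89 in finerenone replicate 1 but 5.96 and 5.83 in finerenone replicates 2 and 3, against 8.27 to 8.90 in untreated hearts. Dbp, a clock output gene, ran the other way with 8.06, 10.99 and 10.79 against 8.68 to 9.25. A clock score, the mean centred level of Arntl, Clock and Npas2 minus that of Per2, Per3, Nr1d2, Dbp, Tef and Hlf, was 1.36, -1.86 and -2.16 in the treated arrays and 0.60 to 1.39 in the untreated ones. Not every clock gene followed that division. Nr1d1, the repressor Rev-erb alpha, read 10.18, 10.13 and 10.08 in treated and 11.05, 10.71 and 10.68 in untreated hearts, so it split by treatment. Klf15 (0.00) and Per1 (-0.15) had overlapping groups. These 3 are outside the score, as are Cry1 and Cry2. Clock, inside the score, read 12.27, 11.46 and 11.38 in treated and 12.81, 12.44 and 12.43 in untreated hearts, so its groups were separate too. The time of day of collection is not given in the sources used here.

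Kcnj2 and Kcnj8 were the channel genes whose sign turned with that division, though Kcnj3 moved further than either without a change of sign. With the clock score as a covariate the difference of Kcnj2 was 0.00, and with finerenone replicate 1 as the only treated heart it was -0.04. For Kcnj8 the corresponding values were 0.04 and 0.14. Kcnj11 stayed at -0.35 and -0.38, beside -0.40 over all arrays without the score. Kcnj12 was at -0.32 in both, beside -0.26. Kcnj5 widened from -0.37 to -0.53 and -0.57. Abcc9 was at -0.16 and -0.05, Kcnk3 at -0.29 and -0.24, Kcnj3 at -0.53 and -0.57 and Abcc8 at -0.20 and -0.19. In the first of these fits 2 genes were lower at an unadjusted p below 0.05 (Kcnj12 and Kcnj5; 1.56% of all genes) and in the second 1 (Kcnj5; 1.22% of all genes), with 0 adjusted calls in either (smallest adjusted p among the 9 of 0.630 and 0.824 in limma). Both settings were added after the data were seen, the score follows the treatment in part, and a single treated heart is assumed to vary as the others do. Whether clock phase had a part in the differences was not tested.

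**Figure D3:**
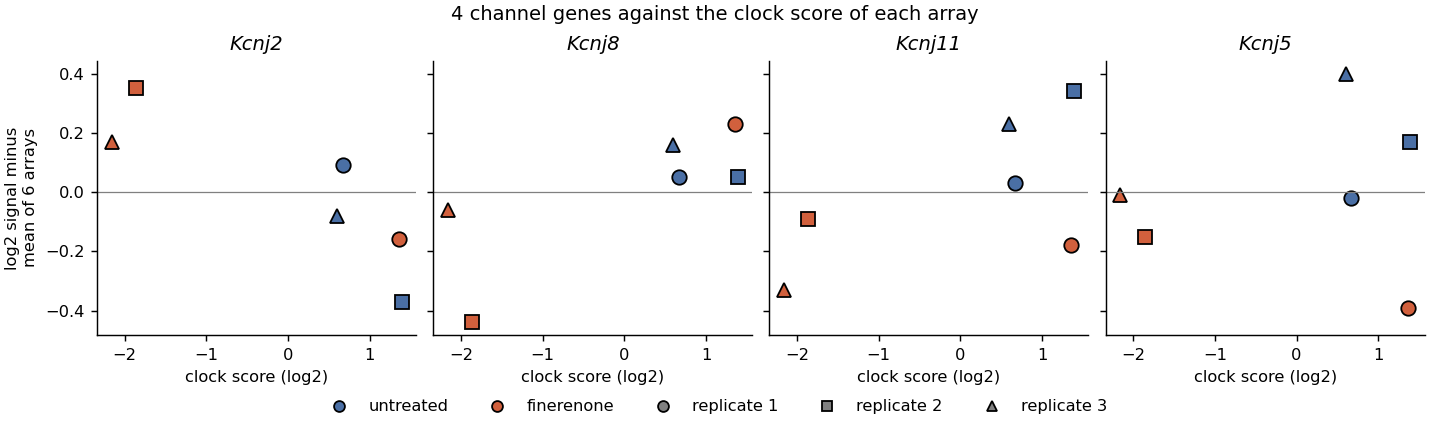
Log2 signal minus the gene's mean over 6 arrays (y axis) against the clock score of the same array (x axis) for Kcnj2, Kcnj8, Kcnj11 and Kcnj5; blue is untreated, orange finerenone, and shapes give the replicate. Finerenone replicates 2 and 3 lie apart on the left at -1.86 and -2.16, with high Kcnj2 and low Kcnj8, while finerenone replicate 1 lies among the untreated arrays on the x axis.

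The remaining genes of both channel families were nearly all dim. Of the 9 other inward rectifiers 5 were lower and 4 higher, with a median of -0.03, and none had a mean at or above the median of the negative controls (range 3.41 to 4.51). The 3 with the smallest unadjusted p were Kcnj4 (Kir2.3) at -0.22, Kcnj16 at 0.22 and Kcnj9 at 0.13. Of the 13 other tandem-pore channels 6 were lower and 7 higher, with a median of 0.00. Kcnk6 was the brightest at a mean of 6.64 and differed by -0.09, and 3 of the 13 reached the negative control median. The 3 with the smallest unadjusted p were Kcnk12 at -0.22, Kcnk4 (TRAAK) at -0.16 and Kcnk15 at 0.10. In both lists 0 genes passed after adjustment, and at an unadjusted p below 0.05 there was 1 lower gene among the 22, Kcnj4, and no higher one, beside 2.12% and 5.69% of all genes.

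Partners of the G protein-gated channel were measured for 11 of 14 genes, of which 6 were lower and 5 higher (median -0.05; 0 past the adjusted threshold). Rgs2, which speeds the turning off of G protein signals, read 10.15, 10.16 and 10.10 in treated and 10.70, 11.25 and 10.48 in untreated hearts, a separated difference of -0.67 ± 0.19 (SE; adjusted p = 0.597 in limma). Rgs4 and Rgs6, from the same family and list, differed by 0.03 and 0.08 with overlapping groups. The muscarinic receptor Chrm2, which opens the Kcnj3 and Kcnj5 channel in response to acetylcholine, differed by -0.31 ± 0.23 with overlapping groups. Gng2, a gamma subunit, differed by 0.20 and Gnao1, an alpha subunit, by 0.15. Anchors and trafficking partners of these channels, measured for 9 of 11 genes, had 5 lower and 4 higher and a median of 0.00, with differences from -0.14 to 0.28. Stx8, a syntaxin of endosomal traffic that handles TASK-1, was at 0.28, S100a10, which binds TASK-1, at 0.17, and Lin7c, a scaffold protein, at -0.14.

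**Figure D4:**
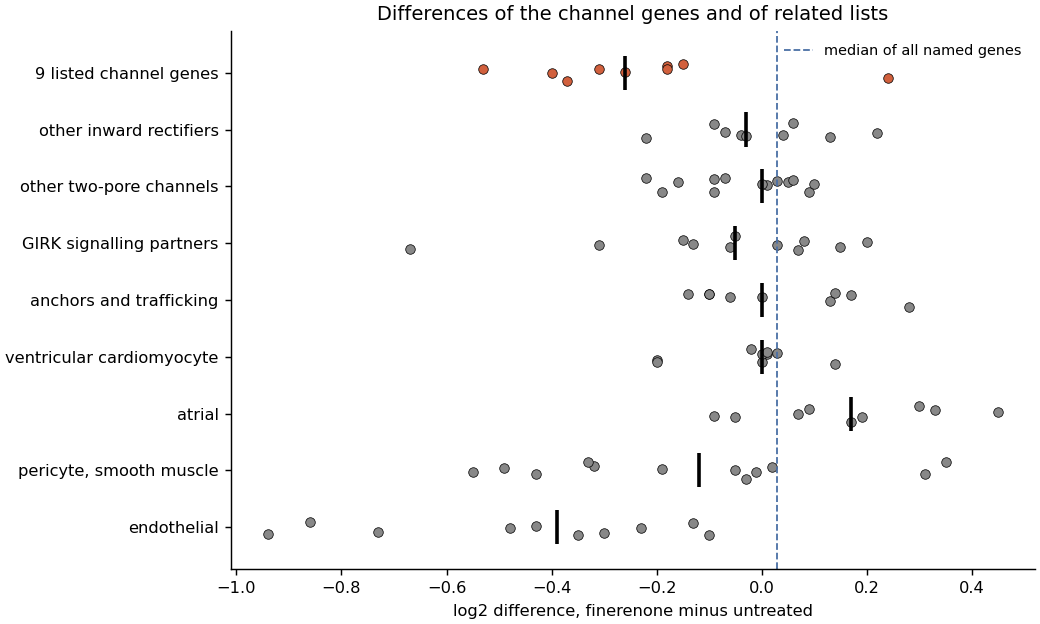
Log2 difference (x axis, finerenone minus untreated) of every measured gene in 9 lists, 1 point per gene, with the list's median (black bar) and the median of all named genes (dashed, 0.03). The 9 channel genes have a median of -0.26, the other inward rectifiers -0.03, the other tandem-pore channels 0.00 and endothelial markers -0.39.

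Profiles most like those of a channel gene were sought for the 3 genes of widest difference among those above the 95th percentile of the negative controls (8.28), by the root mean square distance of centred log2 values over the 6 arrays, among 5812 genes above that line. Nearest to Abcc9 was Hspg2 (perlecan), at a distance of 0.041 where the profile of Abcc9 itself had a root mean square of 0.284, then Arfgef1 at 0.067 and Lamb2, a laminin chain, at 0.068. Nearest to Kcnj2 were Pdgfd (0.073), Fas (0.090) and Tagln2 (0.104), against 0.235 for Kcnj2 itself. Nearest to Kcnk3 were Acad12 (0.118), Garem1 (0.138) and Gm23119 (0.149), against 0.361 for Kcnk3. They are the closest of all the profiles compared over 6 points, given as a description.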

How the data were processed

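RNA from 6 ventricles (integrity numbers above 7.3, per the labels' protocols) was hybridised to 1 Affymetrix array each. The deposited values are log2 signals that the authors summarised with RMA. The submitters' processing notes name Affymetrix Expression Console, besides Transcriptome Analysis Console, with no version, and the build is not given in the sources used here. Of 65956 transcript clusters 30604 carried 1 symbol in the platform annotation, 2146 several and 33206 none; a symbol repeated for 1 cluster counted once. Symbols were updated by Entrez identifier (RefSeq, GRCm38.p6), leaving 30142 genes, with the cluster of highest mean where a gene had several. Groups and replicate numbers came from the sample titles, which call the mice biological replicates.

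All genes were fitted with limma 3.58.1 in R 4.3.3 (lmFit, eBayes without trend, two-sided, no covariate, Benjamini-Hochberg over all genes, threshold 0.05). The fit was checked on simulated data with wider shifts than any channel gene showed. That check does not cover differences of their size. The precision is limited by 3 arrays per group. The channel genes and lists were chosen with earlier results of these data known. Named were all 9 channel genes, up to 3 genes per related list by unadjusted p, bright or defining markers of cell types, and the nearest profiles. Myl7, Sln, Myl2, Pdgfrb, Myh11, Tagln, Vtn, Mcam and Higd1b were named after their values were seen. So were Nppa, Stard10, Fcgr1, Csf1r, Hcn4, Kcnk6, Chrm2, Rgs4, Rgs6 and the clock genes. Negative controls were the 5222 probe sets labelled so in their identifiers. Lists of nerve and skeletal muscle markers had medians of 0.12 and -0.08. The clock list (14 of 15 genes measured) had a median of 0.26. Alternatives were other normalizations, a filter on dim genes, averaging a gene's clusters, the replicate block, array weights, a robust prior with trend, and leaving out arrays.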

Additional observations from a re-analysis of the deposited data

How the results depend on the processing

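In limma the count of genes past the adjusted threshold was 0 over the 6 arrays and under each of the 14 planned and 2 added settings, while genes at an unadjusted p below 0.05 numbered 2353, and 1691 to 2789 with single arrays left out. Among the 11356 genes with a mean of at least 6, where fewer genes were tested and Kcnj12 was lost, there were 1305. The median of the channel genes was -0.26 and lay between -0.33 and -0.14 when 1 array was removed, with -0.14 without finerenone replicate 2 and -0.15 without untreated replicate 3. Under the normalizations, priors and weights it ran from -0.29 to -0.25. Signs turned for Kcnj3 (-0.42 to 0.03 with 1 array removed; 0.01 without finerenone replicate 1, 0.03 without untreated replicate 3), for Kcnj8 (0.04 with the clock score as a covariate, 0.14 without finerenone replicates 2 and 3) and for Kcnj2 (0.00 and -0.04 in those 2 settings); the cause was not tested. The same-numbered arrays correlated at -0.24, 0.10 and 0.13 in their deviations from the group means. Arrays of different number correlated at -0.34 to 0.22. With 3 arrays per group these values cannot decide whether the numbers pair the mice. With the replicate block the differences are the same by construction, the median stayed at -0.26, 2319 genes had an unadjusted p below 0.05 and 3 channel genes did (Kcnj11, Kcnj12 and Kcnj5), with 0 adjusted calls.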
